A study of Homo sapiens with 3 samples.

Results

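Homologous recombination, the Fanconi pathway and the damage checkpoint were followed as a list of 37 genes, among 19775 named on the arrays. A gene was taken where a probe set named it and no other gene, which held for 33 of the 37. BRCA2, RBBP8, FANCA and FANCD2 had no such probe set and were not analysed here. Each gene was read from its brightest probe set. XRCC3 lay below the floor of 45.5 signal units, the pooled median of all values, on every array. The remaining 32 genes count as measured, and 31 of them were above the floor on all 3 arrays.

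The RNA came from IMR-90 ER:Ras, a derivative of the human lung fibroblasts IMR-90. Its Ras oncoprotein is fused to a receptor domain and becomes active on adding 4-OHT (4-hydroxytamoxifen). All 3 cultures carried this construct, and 1 of them was growing and untreated. Oncogene-induced senescence (OIS) followed 6 days of 100 nM 4-OHT, and replicative senescence (RS) was reached by passaging for 10 weeks. The labels name no vehicle-treated culture, so 4-OHT itself and the Ras it switches on cannot be told apart. Each condition had 1 array. No test between conditions was therefore possible, and this number of arrays is what limits precision. The labels do not say how many cultures the RNA of an array came from.

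Homologous recombination repairs a broken chromosome by copying the intact sister chromatid. Nucleases resect the broken ends, BRCA1, PALB2 and BRCA2 prepare the single strand, and it invades the sister duplex. The Fanconi pathway unhooks crosslinks that join both strands: a core complex puts ubiquitin on the FANCI and FANCD2 pair, and recombination completes the repair. ATM and ATR are the kinases that sense breaks and single-stranded DNA, and they act through CHEK2 and CHEK1 to hold the cell cycle. Both pathways depend on a sister chromatid or a replication fork, and many of their genes are known to be transcribed mainly as cells enter and pass through S phase. In senescent fibroblasts persistent damage signalling is a known part of the arrest.

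The conditions showed on other genes of the same arrays. All 10 proliferation markers had lower signals in both senescent cultures, 9 of them past 2-fold in OIS and 10 in RS, with median log2 ratios to growing cells of -2.51 and -2.20. MKI67 had a growing signal of 815, an OIS signal of 143 and an RS signal of 194. BUB1 and TOP2A were lowest, at -3.11 and -3.08 in OIS and -3.07 and -2.67 in RS. Nearest 0 were PCNA at -0.92 and PLK1 at -1.47 in OIS, and PCNA at -1.26 and AURKA at -1.44 in RS. Of 8 senescence markers LMNB1 and HMGB2 were lowest, at -3.21 and -2.61 in OIS and -3.34 and -2.97 in RS. IL1A and IL6 were highest in OIS, at 6.90 and 4.31, and CDKN2A and CXCL8 in RS, at 1.37 and 1.23. At least 2-fold higher were 6 of the 8 in OIS and 2 in RS. In RS IL6 was at 0.66, and IL1A, below the floor there, was at most -0.98. CDKN1A, the gene of p21, was at 1.38 and 0.44. All 10 fibroblast markers were above the floor on every array, with summed signals from 154651 to 170610. Of 7 epithelial markers 3 or 4 were above the floor, with sums from 375 to 486. EPCAM, SFTPC and SFTPB were above it and CDH1, KRT5 and CLDN4 below it on all arrays. Of 6 endothelial markers 3 were above the floor, PECAM1, VWF and TEK, with sums from 1387 to 2193, while CDH5, KDR and CLDN5 were below it. TEK made up most of these sums, with 1251 growing, 1275 in OIS and 2033 in RS. Of 5 blood markers with a probe set 1 or 2 were above the floor, HBB on every array, and PTPRC and LYZ were below it throughout.

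The recombination, Fanconi and checkpoint genes had mostly lower signals in both senescent cultures, and they ranged from more than 7-fold lower to 1.42-fold higher. A gene was called when its signals differed at least 2-fold. In OIS 19 of 32 measured genes were at least 2-fold lower and none was at least 2-fold higher, where 6.63% of all 13466 measured genes were at least 2-fold lower and 4.92% at least 2-fold higher. In RS the same size was passed downward by 16 of 32 and upward by none, against 5.58% and 3.72% of all measured genes, 9.3% in either direction. The log2 ratio was below 0 for 30 of 32 in OIS and for 32 of 32 in RS, against 49.9% and 49.3% of all measured genes. The median log2 ratio of the list was -1.09 in OIS and -0.98 in RS, and the median over all measured genes was 0.00 in both. Among the 31 above the floor on all arrays, 58.1% were called lower in OIS and 48.4% in RS, against 6.94% and 5.72% of the 11295 genes so measured.

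Past 4-fold the list held 9 genes in OIS, BRCA1, BARD1, BRIP1, RAD51AP1, RAD54L, BLM, EXO1, FANCB and FANCI, where 1.58% of all measured genes were that much lower. In RS it held 3, RAD51AP1, BLM and FANCB, against 1.26%. The proliferation markers moved with these genes, and their part in the difference was not tested. In RNA of a whole culture, fewer cells carrying a transcript and less transcript per cell cannot be told apart. The repeat measurement at hand was another probe set for one gene. Over 6759 genes with such a pair, the SD per probe set was 0.36 log2 units for the OIS ratio, 0.33 for the RS ratio and 0.37 between OIS and RS. This spread covers probe error and leaves out differences between cultures.

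**Figure D1:**
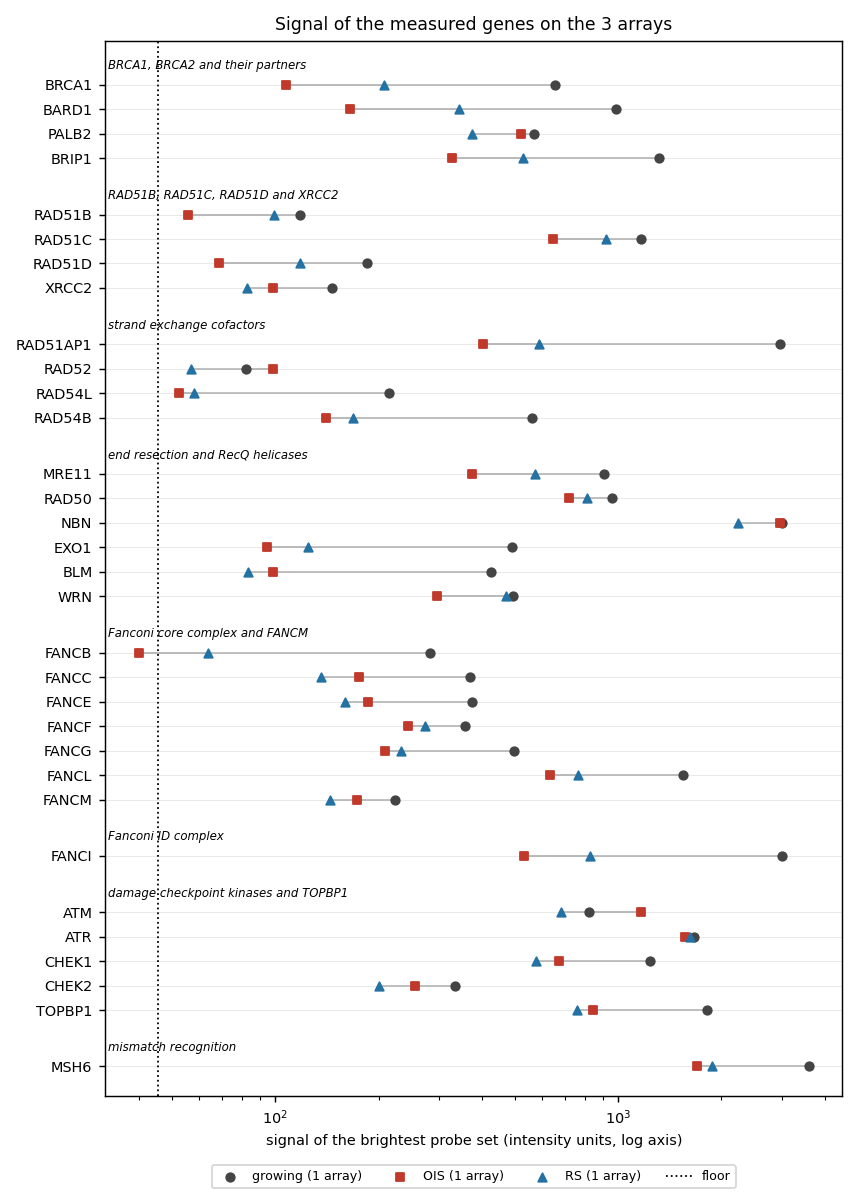
Signal of the brightest probe set (intensity units, log axis) of the 32 measured genes, grouped by role, with 1 point for each of the growing, OIS and RS arrays and a dotted line at the floor of 45.5. The growing point lies to the right of both senescent points for 30 genes, and RAD52 and ATM are the exceptions, with the OIS point farthest right.

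Promoter sequences are shown for the genes at both ends of this range, because E2F and MuvB factors are known to control many S phase and mitotic genes through short promoter motifs. RAD51AP1, FANCB and BLM had the lowest mean log2 ratios over the senescent cultures, at -2.61, -2.40 and -2.23, and ATR and RAD50 were nearest 0, at -0.07 and -0.33. These were taken among genes whose probe sets above the floor shared a sign. The 250 bases before the RefSeq start site are given 5′ to 3′ on the strand of the gene, from build GRCh38.p14. Capitals mark matches to E2F letters (TTCCCGC, with the variant TTCGCGC, the variant TTGGCGC and the variant TTGCCGC), the CHR element (TTTGAA, with the variant TTCGAA) or the CCAAT box (CCAAT), on either strand.
RAD51AP1 chr12:4538640-4538889 (plus strand): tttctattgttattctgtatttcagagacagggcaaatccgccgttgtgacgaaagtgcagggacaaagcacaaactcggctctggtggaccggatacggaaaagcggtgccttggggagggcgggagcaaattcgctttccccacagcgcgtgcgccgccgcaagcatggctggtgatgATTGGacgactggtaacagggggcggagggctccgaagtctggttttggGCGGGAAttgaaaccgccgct
FANCB chrX:14873070-14873319 (minus strand): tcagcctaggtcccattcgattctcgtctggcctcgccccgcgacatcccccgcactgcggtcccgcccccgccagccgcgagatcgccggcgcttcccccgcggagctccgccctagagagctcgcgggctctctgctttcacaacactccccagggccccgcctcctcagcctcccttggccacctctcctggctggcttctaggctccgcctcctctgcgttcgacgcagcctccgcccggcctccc
BLM chr15:90717096-90717345 (plus strand): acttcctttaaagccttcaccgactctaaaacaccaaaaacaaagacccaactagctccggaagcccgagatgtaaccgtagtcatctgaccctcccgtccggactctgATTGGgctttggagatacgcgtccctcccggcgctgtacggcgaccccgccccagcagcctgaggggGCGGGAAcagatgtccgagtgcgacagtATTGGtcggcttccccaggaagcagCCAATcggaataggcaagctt
ATR chr3:142578734-142578983 (minus strand): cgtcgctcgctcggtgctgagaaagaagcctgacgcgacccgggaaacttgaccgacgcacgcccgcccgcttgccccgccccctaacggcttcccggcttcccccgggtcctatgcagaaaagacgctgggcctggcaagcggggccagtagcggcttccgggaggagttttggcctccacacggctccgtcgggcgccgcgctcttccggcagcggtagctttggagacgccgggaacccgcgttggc
RAD50 chr5:132556727-132556976 (plus strand): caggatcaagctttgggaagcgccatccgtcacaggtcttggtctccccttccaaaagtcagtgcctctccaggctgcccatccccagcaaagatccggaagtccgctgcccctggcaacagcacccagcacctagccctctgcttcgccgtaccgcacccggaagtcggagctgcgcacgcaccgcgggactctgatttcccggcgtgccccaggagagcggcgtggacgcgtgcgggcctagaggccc
RAD51AP1 held 1 E2F match on the opposite strand, from position -21 to -15 counted from the start site, and 1 CCAAT box from -70 to -66. BLM held 1 E2F match from -74 to -68 and 3 CCAAT boxes. FANCB, ATR and RAD50 held none of these letters in the window.

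RefSeq start sites were at hand for 28 of the 32 measured genes, those of FANCI, RAD54B, NBN and WRN being the others, and a gene with several windows counted once if any window held a match. The E2F letters were present in 8 of 13 genes that were at least 2-fold lower in both senescent cultures and in 3 of 15 others. They were present in 20.3% of 10870 measured genes and in 29.2% of the 329 measured genes at least 2-fold lower in both cultures. Of all 27305 genes with a window, 13.0% held them. The 8 genes were BRCA1, RAD51AP1, RAD54L, BLM, FANCC, FANCG, FANCL and TOPBP1, and the 3 others RAD51D, RAD52 and MSH6. TOPBP1 held a pair of matches that overlap each other, from -10 to -4 and from -7 to -1. The CHR letters were in BRIP1 and FANCC of the 13 and in ATM of the 15, against 14.1% of measured genes, 17.2% of all genes with a window and 28.3% of the 329. CCAAT boxes were in 5 of 13 and 8 of 15, against 41.2% of measured genes, 58.1% of the 329 and 10102 of all 27305 genes with a window. A match is a run of letters and was not examined for binding.

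**Figure D2:**
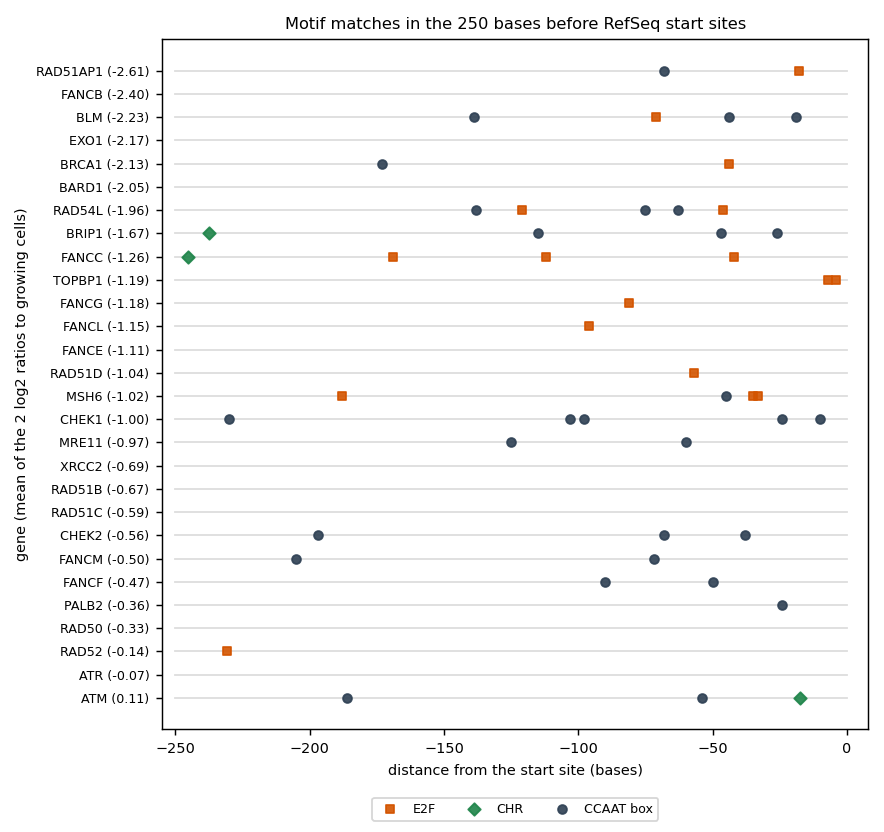
Motif matches by distance from the start site (bases) in the 28 genes with a RefSeq window, ordered from the lowest to the highest mean log2 ratio to growing cells, which stands beside each name. Squares are E2F matches, diamonds CHR and circles CCAAT boxes, and windows of several start sites of a gene share a line. Of the 11 genes with an E2F match, RAD52 is the 1 with a mean ratio above -1. RAD51D and MSH6 are just below -1, at -1.04 and -1.02. BARD1, BRIP1, EXO1, FANCB and FANCE are below -1 with no E2F match.

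BRCA1 and its direct partners differed most in OIS, with PALB2 as the exception. BRCA1, the ubiquitin ligase that directs broken ends to recombination, had a signal of 653 growing, 107 in OIS and 208 in RS. It was 6.08-fold lower in OIS and 3.14-fold lower in RS. Its second probe set gave a smaller log2 ratio of -1.05 in OIS in place of -2.60, and -1.03 in RS. BARD1, the partner that forms the ligase with BRCA1, followed the same order with 983, 165 and 342. It was 5.96-fold and 2.87-fold lower, and its 3 probe sets gave log2 ratios from -3.10 to -1.83 in OIS and from -1.59 to -1.03 in RS. BRIP1, a helicase that binds the BRCA1 carboxyl terminus, had 1318 (growing), 328 (OIS) and 526 (RS). It was 4.02-fold and 2.51-fold lower, and both of its probe sets were past 2-fold in both cultures.

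PALB2, the bridge between BRCA1 and BRCA2, stood apart from these. Its signal was 568 growing, 520 in OIS and 375 in RS. The log2 ratio of -0.13 in OIS was smaller than the probe set SD, and that of -0.60 in RS was larger than it and below a 2-fold call. PALB2 has a single probe set here, so no second reading was at hand.

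RAD51B, RAD51C, RAD51D and XRCC2, which help to prepare the single strand for invasion, were lower by less. RAD51D was the lowest of them in OIS, with a signal of 185 (growing), 68.6 (OIS) and 118 (RS), 2.69-fold and 1.56-fold lower. RAD51B had 118, 55.5 and 99.0, close to the floor. Its 2.13-fold call in OIS rested on the brightest probe set, and the second gave -0.57. RAD51C had 1163, 645 and 921, 1.80-fold lower in OIS and 1.26-fold in RS. XRCC2 had 146, 98.6 and 82.6, 1.48-fold lower in OIS and 1.77-fold in RS. All 4 genes were lower than in growing cells on both arrays, and none was called in RS.

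Among the cofactors of strand exchange, 3 were strongly lower in both cultures and RAD52 was not. RAD51AP1, which stimulates strand invasion, had a signal of 2965 growing, 404 in OIS and 586 in RS. It was 7.33-fold and 5.06-fold lower, and its log2 ratio in OIS, -2.87, was the lowest of the list. RAD54L, a motor protein that acts in strand invasion, had 214, 52.3 and 57.8, which put both senescent signals near the floor. It was 4.10-fold and 3.71-fold lower. RAD54B, its close relative, had 561, 141 and 168, 3.98-fold and 3.33-fold lower. RAD52, which anneals single strands, had 82.3, 98.4 and 56.9, 1.20-fold higher in OIS and 1.45-fold lower in RS. Its other probe sets above the floor gave -0.30 and, with the OIS signal below the floor, at most -0.51, so its direction there differed between probe sets.

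Among the genes of end resection and the RecQ helicases, EXO1 and BLM were lowest in both cultures. EXO1, the exonuclease of long-range resection, had a signal of 489 (growing), 94.6 (OIS) and 125 (RS), 5.17-fold and 3.92-fold lower. BLM, the helicase that dissolves joined recombination intermediates, had 425, 98.3 and 83.0, 4.32-fold lower in OIS and 5.12-fold in RS. Both senescent signals lay far below the growing one for each of these genes. WRN, the RecQ helicase lost in the premature ageing disorder Werner syndrome, had 495, 297 and 472. It was 1.67-fold lower in OIS, while its log2 ratio of -0.07 in RS was smaller than the probe set SD.

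MRE11, RAD50 and NBN form the complex that first binds a broken end and recruits ATM, and they did not move alike. MRE11, its nuclease, had 909 growing, 375 in OIS and 571 in RS, 2.42-fold and 1.59-fold lower. A second probe set was below the floor growing and in OIS and gave no second reading there. RAD50, the long tether of the complex, had 958, 719 and 813, 1.33-fold and 1.18-fold lower, and its 3 probe sets gave from -0.84 to -0.41 in OIS and from -0.62 to -0.24 in RS. NBN, the subunit that contacts ATM, had 3002, 2953 and 2233. Its 4 probe sets above the floor gave from -0.16 to 0.24 in OIS and from -0.53 to -0.39 in RS. RAD50 and NBN were thus not called in either culture.

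The Fanconi core complex, the ubiquitin ligase of the crosslink pathway, was lower in both senescent cultures for most subunits. Of 7 measured genes in this group, 5 were at least 2-fold lower in OIS and the same 5, FANCB, FANCC, FANCE, FANCG and FANCL, in RS. Over all measured genes 6.63% were that much lower in OIS, 5.58% in RS and 3.01% in both. The group median log2 ratio was -1.08 in OIS and -1.10 in RS. FANCB, a subunit of the catalytic module, had a signal of 283 (growing), 39.9 (OIS) and 63.6 (RS). As the OIS signal was below the floor, it was at least 6.22-fold lower there, and it was 4.45-fold lower in RS. FANCL, the subunit with the ligase activity, had 1545, 634 and 764, 2.44-fold and 2.02-fold lower. FANCG had 496, 208 and 232, 2.38-fold and 2.14-fold lower.

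FANCC and FANCE bind each other within the complex. Both had their lowest signal in RS, FANCE by less than the probe set SD. FANCC had 371 growing, 175 in OIS and 136 in RS, 2.11-fold and 2.73-fold lower. FANCE had 373, 187 and 160, 2.34-fold lower in RS and at the edge of a call in OIS. FANCF, the adaptor of the complex, had 358, 243 and 273, 1.47-fold and 1.31-fold lower. FANCM, the translocase that brings the complex to DNA, had 224, 173 and 144, 1.29-fold and 1.55-fold lower. Its 4 probe sets above the floor gave log2 ratios from -0.43 to 0.51 in OIS, 3 below 0 and 1 above. Both ends of this range are bounds set by the floor. The direction of FANCM in OIS thus differed between probe sets. On their brightest probe sets, FANCF and FANCM were not called in either culture. FANCI, the measured member of the pair that the core complex modifies, was far lower than the adaptor and the translocase. Its signal was 3009 (growing), 531 (OIS) and 826 (RS), 5.67-fold and 3.64-fold lower. All 3 of its probe sets were lower, from -3.20 to -0.91 in OIS and from -2.19 to -0.63 in RS.

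**Figure D3:**
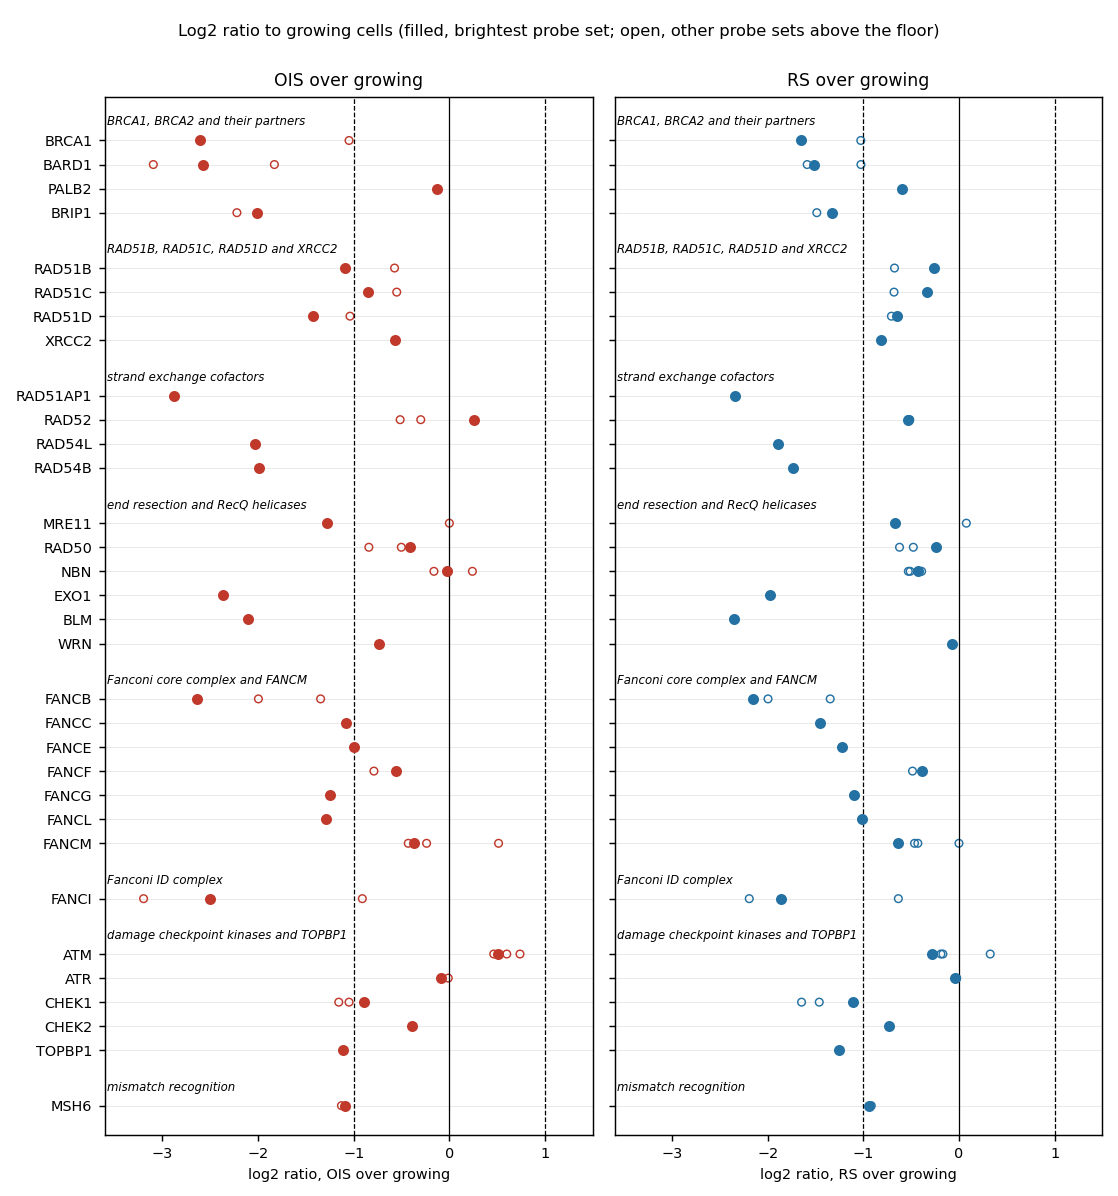
Log2 ratio of OIS (left) and RS (right) over growing cells for the 32 measured genes by role, with the brightest probe set filled and other probe sets above the floor open. Dashed lines mark 2-fold. Both panels use the same growing array. In the left panel 19 filled points lie at or past 2-fold lower and in the right panel 16, and the ATR points lie close to 0 in both.

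The upper checkpoint kinases ATM and ATR kept a signal near or above that of growing cells, while TOPBP1 and CHEK1 were lower. ATM, the kinase activated by broken ends, had 823 growing, 1168 in OIS and 678 in RS. It was 1.42-fold higher in OIS, where its 4 probe sets above the floor gave log2 ratios from 0.46 to 0.74. In RS it was 1.21-fold lower, within the probe set SD, and its probe sets gave from -0.28 to 0.33. ATR, the kinase activated by single-stranded DNA, had 1666, 1566 and 1615. Its log2 ratios of -0.09 and -0.04 were the smallest pair in the list, and a second probe set gave -0.01 and -0.02.

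TOPBP1, the activator of ATR, differed from its kinase. It had a signal of 1820 (growing), 843 (OIS) and 760 (RS), 2.16-fold and 2.39-fold lower. CHEK1, the kinase that ATR phosphorylates, had 1239, 670 and 574, 1.85-fold and 2.16-fold lower. Its 3 probe sets gave from -1.16 to -0.89 in OIS and from -1.65 to -1.11 in RS, so the brightest gave the smallest difference. CHEK2, the kinase that ATM phosphorylates, had 335, 255 and 201, 1.31-fold lower in OIS and 1.66-fold in RS, with no call. MSH6, which takes part in recognising mismatched bases, had 3597, 1692 and 1871. It was 2.13-fold lower in OIS and 1.92-fold in RS, and a second probe set gave nearly equal log2 ratios of -1.13 and -0.92.

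The growing array is common to both ratios, so calls in the senescent cultures are not independent of each other. Both cultures were at least 2-fold lower for 15 of 32 genes, where 3.01% of all measured genes were, and these are BRCA1, BARD1, BRIP1, RAD51AP1, RAD54L, RAD54B, BLM, EXO1, FANCB, FANCC, FANCE, FANCG, FANCI, FANCL and TOPBP1. RAD51B, RAD51D, MRE11 and MSH6 passed 2-fold in OIS alone, and CHEK1 in RS alone. Both other CHEK1 probe sets above the floor passed 2-fold in OIS too. The remaining 12 genes passed it in neither.

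Between the senescent arrays, BARD1, 2.08-fold lower in OIS than in RS, was the 1 gene of 32 past 2-fold. This is no more than the share of all genes, where 5.27% of all measured genes were at least 2-fold lower in OIS than in RS, 5.48% at least 2-fold higher and 10.7% either. The median log2 ratio of OIS over RS was -0.16 in the list and 0.00 over all measured genes. The signal was lower in OIS for 20 genes and lower in RS for 12, and 48.1% of all measured genes were lower in OIS. For 15 genes the difference was within the probe set SD of 0.37.

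The genes lower in OIS than in RS by more than that SD were 12, against 22.2% of all measured genes, namely BRCA1, BARD1, BRIP1, RAD51B, RAD51C, RAD51D, RAD51AP1, WRN, EXO1, MRE11, FANCB and FANCI. For BARD1 the 3 probe sets gave log2 ratios from -1.51 to -0.80, and for BRIP1 both gave about the same value, -0.73 and -0.68. For BRCA1 the brightest probe set gave -0.95 and the second -0.02. RAD51B and RAD51C changed sign between their probe sets. The genes higher in OIS than in RS by more than the SD were 5, against 21% of all measured genes, namely PALB2, RAD52, NBN, FANCC and ATM. ATM was 1.72-fold higher, with its 4 probe sets from 0.27 to 0.91. NBN was 1.32-fold higher, with 4 probe sets from 0.37 to 0.63. The other checkpoint genes lay within the SD, with CHEK2 at 0.34, CHEK1 at 0.22, TOPBP1 at 0.15 and ATR at -0.04.

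**Figure D4:**
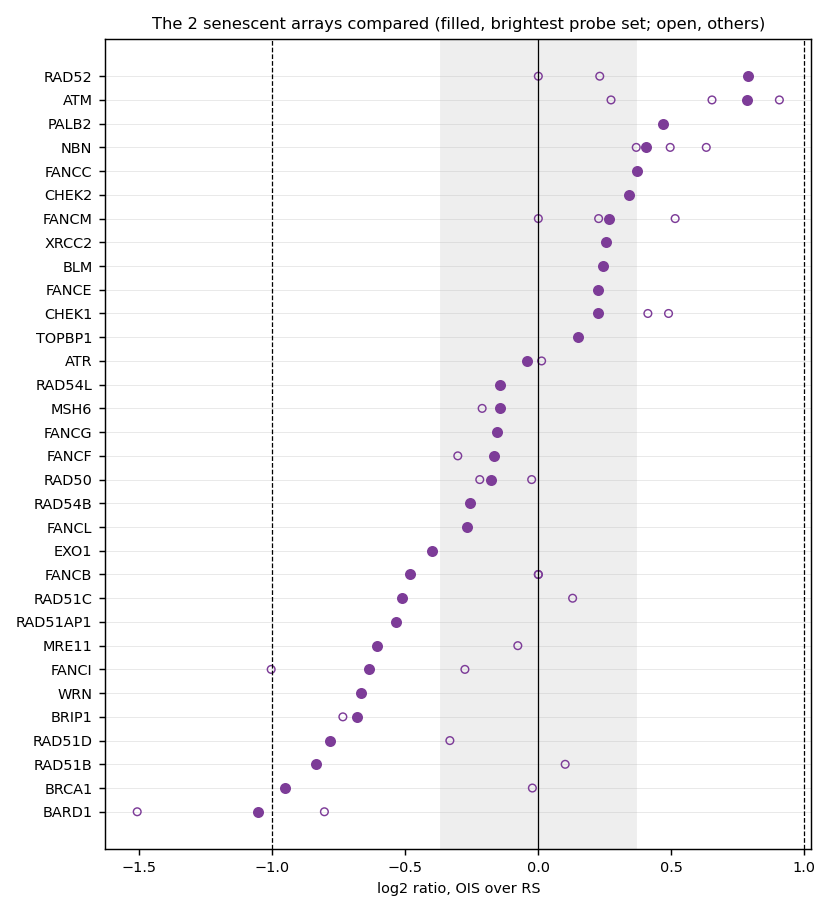
Log2 ratio of OIS over RS for the 32 measured genes, ordered by value, with the brightest probe set filled and others above the floor open. The grey band is the probe set SD of 0.37 on each side of 0 and dashed lines mark 2-fold. BARD1 lies beyond the dashed line on the left, RAD52 and ATM are the highest, and 15 filled points lie inside the band.

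Other genes of these pathways were lower by less at the median. Of 33 further recombination genes, 12 were at least 2-fold lower in OIS and 13 in RS, against 6.63% and 5.58% of all measured genes. None was 2-fold higher, against 4.92% and 3.72%, and the list medians were -0.70 and -0.61. The lowest were POLQ, the polymerase of theta-mediated end joining, at 6.70-fold lower in OIS and 5.91-fold in RS, and the recombination cofactor MND1, with log2 ratios of -2.72 and -2.56. The highest were HELQ, a helicase, at 1.97-fold higher in OIS and 1.39-fold in RS, and SWSAP1, at 1.65-fold and 1.85-fold from a growing signal of 77.0. Other probe sets of HELQ gave from -0.15 to 0.36 in OIS and from -0.37 to 0.09 in RS.

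Of 17 further Fanconi and crosslink genes, 6 were at least 2-fold lower in OIS and 5 in RS, against 6.63% and 5.58% of all measured genes. The list medians were -0.58 and -0.53. UBE2T, the ubiquitin-conjugating enzyme that works with FANCL, was 3.10-fold lower in OIS and 3.26-fold in RS, and the nuclease DCLRE1B 3.82-fold and 3.13-fold. The second probe set of DCLRE1B gave -0.42 in RS. The highest in OIS were ERCC1, a subunit of the nuclease that cuts beside a crosslink, at a log2 ratio of 0.84 and FAAP20 at 0.59. In RS they were FAAP20 at 1.25-fold and FAAP100 at 1.08-fold. The 5 other probe sets of FAAP20 ran from -0.60 to 0.53 in OIS and from -0.60 to 0.00 in RS. The ends at -0.60 and 0.00 were set by the floor. ERCC1 was also higher in OIS than in RS, by 1.11 on the log2 scale, and its other probe sets gave values down to 0.31. Of 26 further checkpoint and damage signalling genes, 7 were at least 2-fold lower in OIS and 7 in RS, against the same shares. Their medians were -0.48 and -0.62. PKMYT1, a kinase that restrains CDK1, was 4.32-fold and 3.55-fold lower. TIMELESS, a fork protection protein, was 4.13-fold and 4.80-fold lower. Its second probe set gave at most -0.27 in both cultures, a bound set by the floor. At the other end TP53BP1 was 1.32-fold and the phosphatase PPM1D 1.27-fold higher in OIS, and BABAM2 1.15-fold and KAT5 1.14-fold higher in RS. The other probe sets of TP53BP1 and KAT5 above the floor had ratios below 0 there, from -0.30 to -0.15 and from -0.17 to -0.04.

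Repair by nonhomologous end joining and by excision of damaged bases or nucleotides does not need a sister chromatid. None of the 9 measured genes on the nonhomologous end joining list, which leaves out POLQ, was 2-fold lower in OIS. In RS 1 was, and the medians were -0.23 and -0.16. Over all measured genes 6.63% were at least 2-fold lower in OIS and 5.58% in RS. Counts this small are near those shares in lists this short. In OIS XRCC4 was 1.96-fold and PAXX at least 1.70-fold lower, and APLF and LIG4 were 1.26-fold and 1.25-fold higher. In RS the kinase PRKDC was just past 2-fold and APLF 1.43-fold lower, and PAXX was 1.35-fold and XRCC4 2.25-fold higher. The 17 nucleotide excision repair genes had medians of 0.18 and 0.05, with none called in OIS. XAB2 was lowest in both, at 1.97-fold and 2.02-fold lower from a growing signal of 91.7, followed by ERCC8 at 1.22-fold in OIS and GTF2H4 at 1.29-fold in RS. UVSSA and ERCC5 were highest in OIS, at 1.40-fold and 1.34-fold, and ERCC6 and XPA in RS, at 2.10-fold and 1.58-fold. Other probe sets gave log2 ratios from -0.98 to 1.23 for UVSSA and from -0.08 to 0.19 for ERCC8 in OIS. The direction of both thus differed between probe sets.

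The 19 base excision and single-strand break repair genes had medians of -0.20 and -0.31. Of them 3 were called lower in OIS and 6 in RS, against 6.63% and 5.58% of all measured genes. The glycosylase NEIL3 was 7.94-fold and 7.23-fold lower, and the flap nuclease FEN1 3.28-fold and 3.01-fold. TDG and MPG, also glycosylases, were 1.60-fold and 1.56-fold higher in OIS, and NEIL2 and NTHL1 1.28-fold and 1.18-fold higher in RS. The second probe set of TDG gave a log2 ratio of -0.02 in OIS. The 3 measured mismatch repair genes beside MSH6 had medians of -0.50 and -0.41 and were not called. In OIS MSH3 was 1.56-fold, PMS1 1.41-fold and MLH3 1.15-fold lower. In RS PMS1 was 1.34-fold and MSH3 1.33-fold lower and MLH3 1.08-fold higher. Other probe sets gave from -0.19 to 0.25 for MLH3 in OIS and from -0.31 to 0.41 for PMS1 in RS. These lists differ in size and share the 3 arrays, and the difference between them was not tested.

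**Figure D5:**
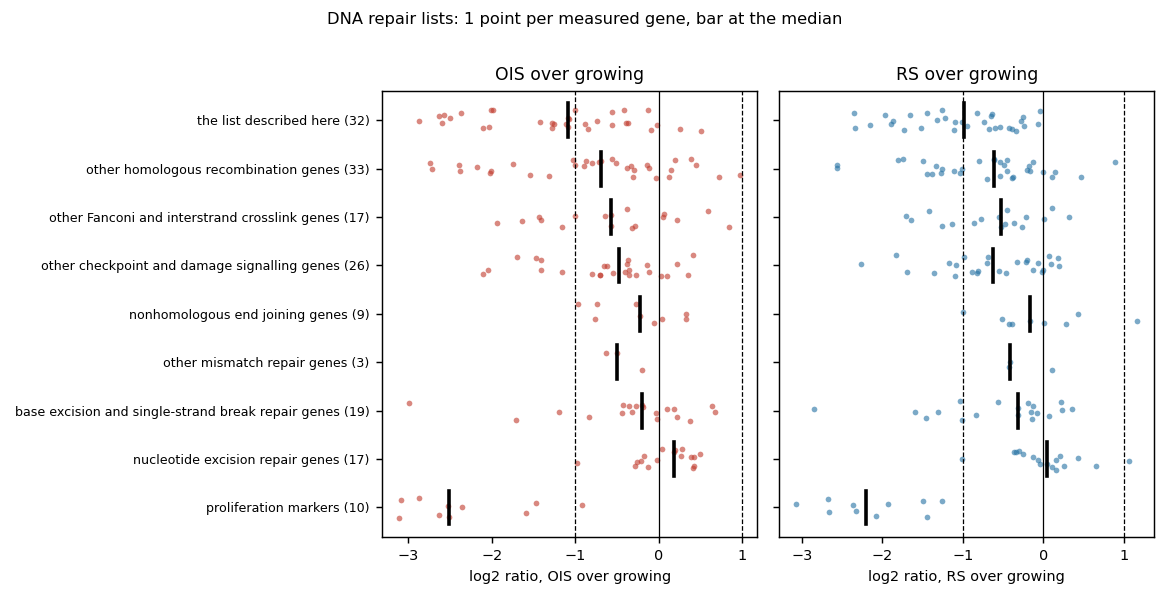
Log2 ratio of OIS (left) and RS (right) over growing cells, with 1 point for each measured gene of the recombination, Fanconi and checkpoint list, 7 other repair lists and the proliferation markers, and a bar at each median. Numbers in brackets are measured genes, vertical scatter within a line has no meaning and dashed lines mark 2-fold. The top line has its median at -1.09 and -0.98, the proliferation markers at -2.51 and -2.20, and nucleotide excision repair at 0.18 and 0.05.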

How the data were processed

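The authors deposited 1 linear intensity for every probe set on each of 3 arrays, computed with MAS5, per the submitters' processing notes. Its settings and detection calls were not used here. MAS5 brings every array to a common overall level, which would hide a change shared by all genes. Of 54613 probe sets 41091 named 1 gene, 1801 several and 11721 none, and 41037 had an identifier in the RefSeq table. Values under 45.5 were raised to it before log2, and each gene was read from its brightest probe set, ranked on the mean of the log2 values over the arrays. Genes above the floor on at least 1 array numbered 13466.

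The members, lists and motifs were chosen with earlier results of these data known, so no list is independent evidence. Named genes were all members and, of each other list, the 2 highest and 2 lowest ratios in each senescent culture, plus MKI67, CDKN1A, CDKN2A, LMNB1 and a gene that is not reported here. XRCC1, RMI1, RMI2, GEN1 and RAD18 were added after their values were seen. Cross-hybridizing probe sets, with names ending in _s_at, _x_at or _a_at, can bind several transcripts, and 13 of the 32 measured members were read from one. Steps were tested on simulated data. Python 3.11.15, numpy 2.4.6, pandas 2.3.3 and matplotlib 3.10.9 were used.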

Additional observations from a re-analysis of the deposited data

Results flagged for a closer look

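The probe sets naming both RAD54B and its neighbour FSBP were left out of the gene values and gave a signal above the floor in growing cells. The first had signals of 110 (growing), 34.9 (OIS) and 24.3 (RS). Both senescent signals were below the floor, so the log2 ratio of -1.28 is a bound, at least 2.42-fold lower in each. The other had 264, 74.8 and 46.5, with log2 ratios of -1.82 in OIS and -2.51 in RS. The probe set that names RAD54B alone gave -1.99 and -1.74. No gene of the list was higher in one senescent culture and lower in the other by more than the probe set SD, although ATM, at 0.50 and -0.28, and RAD52, at 0.26 and -0.53, had opposite signs. With 1 array per condition no array could be set against others of its group.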

How the results depend on the processing

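Other settings kept most of the counts and medians. The 19 genes called lower in OIS became 15 to 19 and the 16 in RS 14 to 16 with quantile normalization, centred ratios, either other floor, a pseudocount of 16, no filter, the median of all probe sets, or no cross-hybridizing probe sets. Over all measured genes the number called lower under these settings ran from 655 (of 13466) to 1698 (of 18131) in OIS. In RS it ran from 549 (of 13466) to 1614 (of 18131). The second brightest probe set, present for 18 measured genes, gave 8 lower in OIS, 6 in RS and 2 apart between OIS and RS. Fewer genes had a value there, and of all 6759 that did, 456 were lower in OIS and 338 in RS. A 3-fold size gave 10, 8 and 0. That size was passed downward in OIS by 342 and in RS by 317 of 13466 measured genes. BARD1, the 1 gene apart between OIS and RS, was joined by XRCC3 with the floor at the 25th percentile, a count of 2, and was not past 2-fold with the pseudocount, a count of 0. The list median ran from -1.09 to -0.82 in OIS and from -1.06 to -0.68 in RS, nearest 0 with the second probe set. Of 804 ratios of single genes under these settings 741 moved by no more than the SD, 63 by more, and none that was called changed sign. This total includes 2 settings that could not move a ratio. Centring subtracted a median of 0, and dropping the filter only adds genes. With the second brightest probe set, 9 of 18 ratios moved by more than the SD in OIS and 6 of 18 in RS. Between OIS and RS 9 of 18 did. Calls in OIS were lost for FANCC and FANCE after quantile normalization, at -0.97 and -0.90, for RAD51B with the floor at the 60th percentile, at -0.41, and for MSH6 with the median of its probe sets, at -0.54, where those below the floor count as 0. FANCL lost its RS call after quantile normalization, at -0.98, and CHEK1 gained an OIS call with the second brightest probe set, at -1.16. The 0.00 that other probe sets gave for MRE11 in OIS and for FANCC was set by the floor. Low signal limits RAD54L, RAD51B, RAD52 and FANCB most. No paired analysis was possible because each condition has 1 array.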

Other observations

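XRCC4, the scaffold of the ligase in nonhomologous end joining, was the gene of the other repair lists with the widest gap between the senescent cultures. It was picked out after its values were seen. Its signal was 525 growing, 267 in OIS and 1179 in RS, a log2 ratio of OIS over RS of -2.14. The other bright probe sets gave -1.97 and -2.17 for the same ratio, with signals of 489, 246 and 967 and of 569, 207 and 930. The fourth, below the floor in growing cells and OIS, gave at most -1.37. All 4 probe sets were thus highest in RS.

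XRCC1, the scaffold of single-strand break repair, showed the opposite order. Its signal was 385 (growing), 413 (OIS) and 155 (RS), and its log2 ratio of OIS over RS was 1.41. It has a single probe set, and no second reading was at hand. PAXX, also of end joining, had 77.5, 27.2 and 105, with OIS below the floor.

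The helper proteins of the BLM complex RMI1 and RMI2 and the junction-cutting nuclease GEN1 were lower in OIS than in RS. RMI1 had 1654 growing, 412 in OIS and 689 in RS. RMI2 had 624, 119 and 229, and GEN1 316, 60.9 and 131. RAD18, a ubiquitin ligase of stalled forks, had 560, 123 and 277. GEN1 and RAD18 were past 2-fold between OIS and RS, at -1.11 and -1.17, the 2 of 33 further recombination genes that were, where 5.27% of all measured genes were at least 2-fold lower in OIS than in RS. Other probe sets of RAD18 above the floor gave -0.63 and -0.22 between OIS and RS. RMI1, RMI2, GEN1 and RAD18 were also picked out after their values were seen. Of the 33 further recombination genes, 15 were lower in OIS than in RS. Their ratios ran from -1.17 to 0.83, with a median of 0.02.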
